A study of Mus musculus with 12 samples.

Results

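Genes of the Notch pathway that endothelial cells (ECs) are known to use were followed in ECs sorted from mouse lungs during growth of breast cancer metastases. The 10 genes were chosen by name and role, as 4 ligand genes (Dll1, Dll4, Jag1 and Jag2), 2 receptor genes (Notch1 and Notch4) and 4 target genes (Hes1, Hey1, Hey2 and Nrarp), out of 18193 genes that could be read on the arrays. The choice was made with earlier results of these data known. All 10 were measured, each by the probe set with the highest mean signal among those annotated to that gene alone. RNA of the sorted cells was hybridised to 12 Affymetrix arrays, 3 for each of 4 groups. ECs came from NSG mice, which lack T, B and NK cells, at 1, 2 and 3 weeks after tail vein injection of MDA231-LM2 cells (MDA-MB-231-LM2 in the labels), a human breast cancer line that colonizes the lung and carries a GFP reporter, and from healthy NSG mice of the same age with no cancer cells. The injected mice were 6 to 8 weeks old. The labels call the arrays of a group biological replicates and do not say whether each came from 1 mouse or from pooled mice. The sort took CD31-positive cells of the lungs and dropped those positive for GFP (cancer cells), CD140a or CD140b (fibroblasts and pericytes), EpCAM (epithelium), CD11b or CD45 (leukocytes). Such samples cannot tell fewer cells of a type apart from less RNA per cell.

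Notch signaling passes between touching cells. A ligand on one cell (of the Delta-like or Jagged family) binds a Notch receptor on its neighbor, the receptor is cut by ADAM proteases and γ-secretase, and the freed intracellular domain enters the nucleus and joins the DNA-binding protein RBPJ to switch on targets, mainly repressors of the HES and HEY families. In blood vessels, Dll4 is known for restraining tip cells, the leading cells of sprouts, through Notch1 in neighboring stalk cells, Jag1 for opposing Dll4 in that setting, and Hey1 and Hey2 for arterial identity.

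The sorted cells carried endothelial transcripts at all times. The gene of CD31 itself, Pecam1, had a mean log2 signal of 13.49 at week 3 and 13.45 in healthy lungs, and 15 of 16 pan-endothelial markers did not differ past the threshold at week 3, while Cd34 rose. Transcripts of other cell types were present as well, and their levels moved with the groups. At week 3 against healthy lungs, the markers that fell were 6 of 11 for fibroblasts, 2 of 11 for pericytes and smooth muscle, 2 of 9 for airway epithelium, and 3 of 6 for each type of alveolar cell (types 1 and 2), with no marker of these lists higher. Of 12 leukocyte and macrophage markers 3 rose and 1 fell. None of 7 platelet markers, 6 lymphatic markers and 7 general capillary markers passed the test, and 1 of 6 aerocyte markers rose (Apln). In the same test over all genes, 5.01% passed at week 3. RNA integrity, read as the log2 signal of the 3′ minus that of the 5′ Gapdh control, gave 0.31 ± 0.08 at week 3 and 0.52 ± 0.16 in healthy lungs (SD, n = 3 each).

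Of the 10 Notch genes, Hes1 alone passed the test at week 3 against healthy lungs, and it was lower. Groups were compared with limma on the log2 signals, and a gene passed when its p, adjusted over 45037 probe sets by Benjamini–Hochberg, was below 0.05. At that threshold, 2.63% of all genes were lower at week 3, and the count among the members is 1 of 10. None of the 10 passed at week 1 against healthy lungs, where 0.0495% of all genes did, or at week 2, where 0.242% did. None passed between week 3 and week 2 (2.10% of all genes), between week 3 and week 1 (0.841%) or between week 2 and week 1 (0%). At an unadjusted p below 0.05, the members counted 1 at week 1, 1 at week 2 and 1 at week 3 against healthy lungs, where 8.98%, 10.5% and 21.4% of all genes did, so at weeks 1 and 2 the count was near the share over all genes and at week 3 it was below it. There were 5 members between week 3 and week 2 (16.9% of all genes), 3 between week 3 and week 1 (13.5%) and 1 between week 2 and week 1 (6.55%). All comparisons with healthy lungs share the healthy arrays, and those among the weeks share the arrays of each week. The median log2 fold change of the 10 genes was 0.17 at week 1, 0.10 at week 2 and -0.13 at week 3 against healthy lungs, beside 0.05, 0.03 and 0.03 over all genes.

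**Figure D1:**
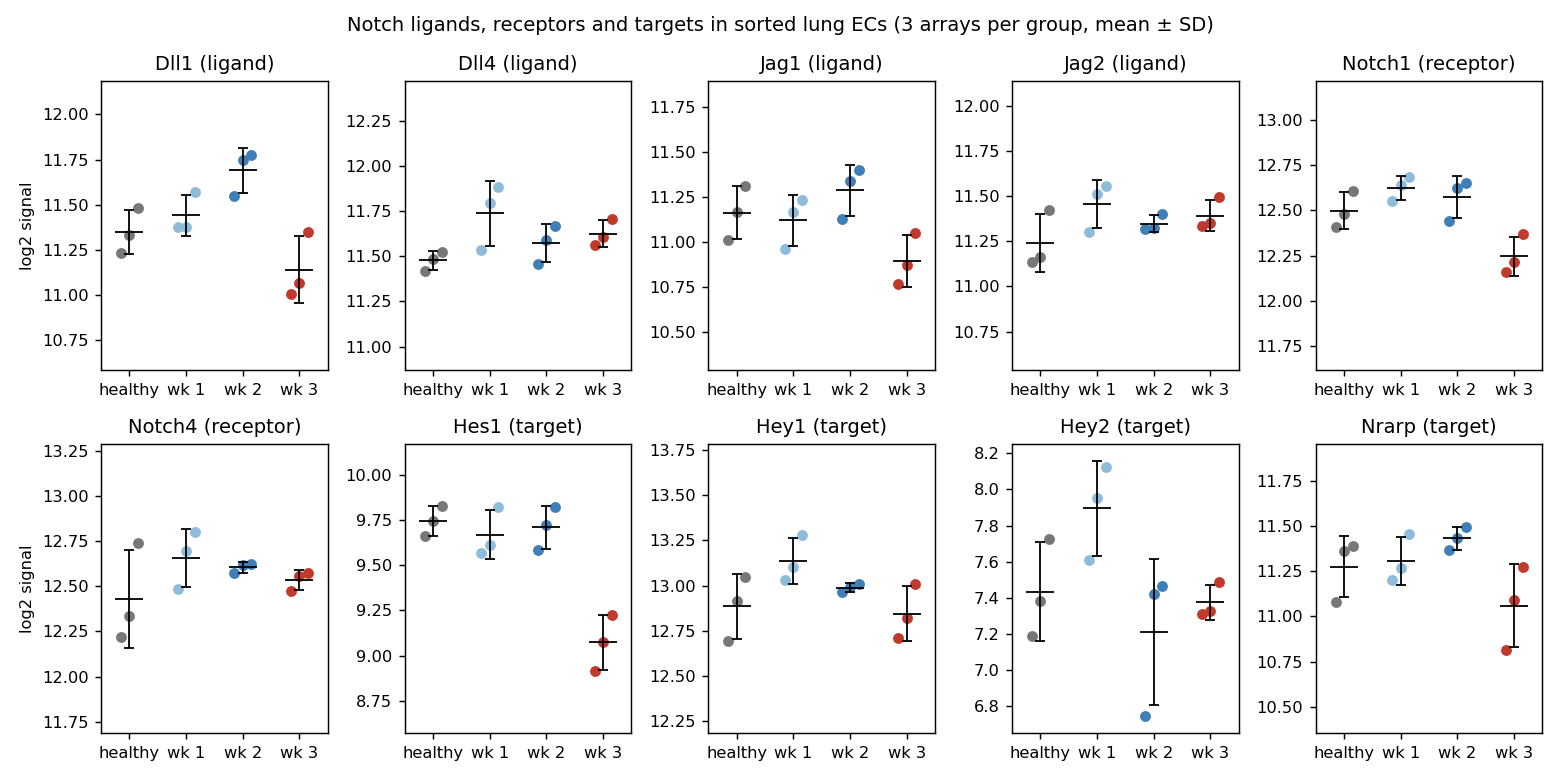
Log2 signal (vertical axis) of the 10 Notch genes in sorted lung ECs of healthy mice and of the 3 weeks, by group (horizontal axis). Each point is an array, ordered by value within a group, and bars are the mean ± SD (n = 3); every panel spans the same range of log2 units, and the week 3 arrays of Hes1, at 8.92 to 9.22, lie below all 9 others.

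None of the 4 ligand genes passed in any of the 6 comparisons. Dll1, which encodes a Delta-like ligand, had log2 signals of 11.48, 11.33 and 11.24 in healthy lungs, 11.38, 11.57 and 11.38 at week 1, 11.55, 11.75 and 11.78 at week 2, and 11.07, 11.35 and 11.005 at week 3. All week 2 arrays lay above all arrays of healthy lungs and of week 3, while week 3 and healthy arrays overlapped. The log2 fold change was 0.34 at week 2 against healthy lungs (standard error 0.12, adjusted p = 0.367) and -0.55 at week 3 against week 2 (standard error 0.13, 95% confidence interval -0.86 to -0.24, adjusted p = 0.094). The group means ran, from high to low, week 2, week 1, healthy and week 3, and each pair of neighbors in that order overlapped.

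Dll4, the ligand that marks arterial ECs and tip cells, had log2 signals of 11.49, 11.42 and 11.52 in healthy lungs, 11.80, 11.88 and 11.53 at week 1, 11.67, 11.59 and 11.46 at week 2, and 11.56, 11.71 and 11.61 at week 3. The arrays of weeks 1 and 3 all lay above the healthy ones, by a small margin, and those of week 2 overlapped with them. The log2 fold change at week 3 was 0.15 (standard error 0.10, 95% confidence interval -0.09 to 0.39, adjusted p = 0.467), an interval of 0.939-fold to 1.31-fold. At week 1 it was 0.26 (standard error 0.13, adjusted p = 0.621).

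Jag1, the Jagged ligand that opposes Dll4 in sprouting vessels, had log2 signals of 11.17, 11.01 and 11.31 in healthy lungs, 11.17, 10.96 and 11.23 at week 1, 11.13, 11.40 and 11.34 at week 2, and 10.77, 11.05 and 10.87 at week 3. The week 3 arrays all lay below those of week 2 and overlapped with the healthy ones at 1 array. The log2 fold change was -0.39 at week 3 against week 2 (standard error 0.12, 95% confidence interval -0.68 to -0.10, adjusted p = 0.178) and -0.27 against healthy lungs (standard error 0.13, adjusted p = 0.299). Jag2, the other Jagged ligand, averaged 11.24 ± 0.16 in healthy lungs, 11.46 ± 0.13 at week 1, 11.35 ± 0.05 at week 2 and 11.39 ± 0.09 at week 3 (SD, n = 3 each), and the arrays of its 4 groups overlapped. At week 3 Jag2 had a log2 fold change of 0.15 against healthy lungs (95% confidence interval -0.14 to 0.44). Thus, at week 3 the mean differences of Dll4 and Jag2 from healthy lungs were above 0 and those of Dll1 and Jag1 below 0, each with an interval that holds 0.

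**Figure D2:**
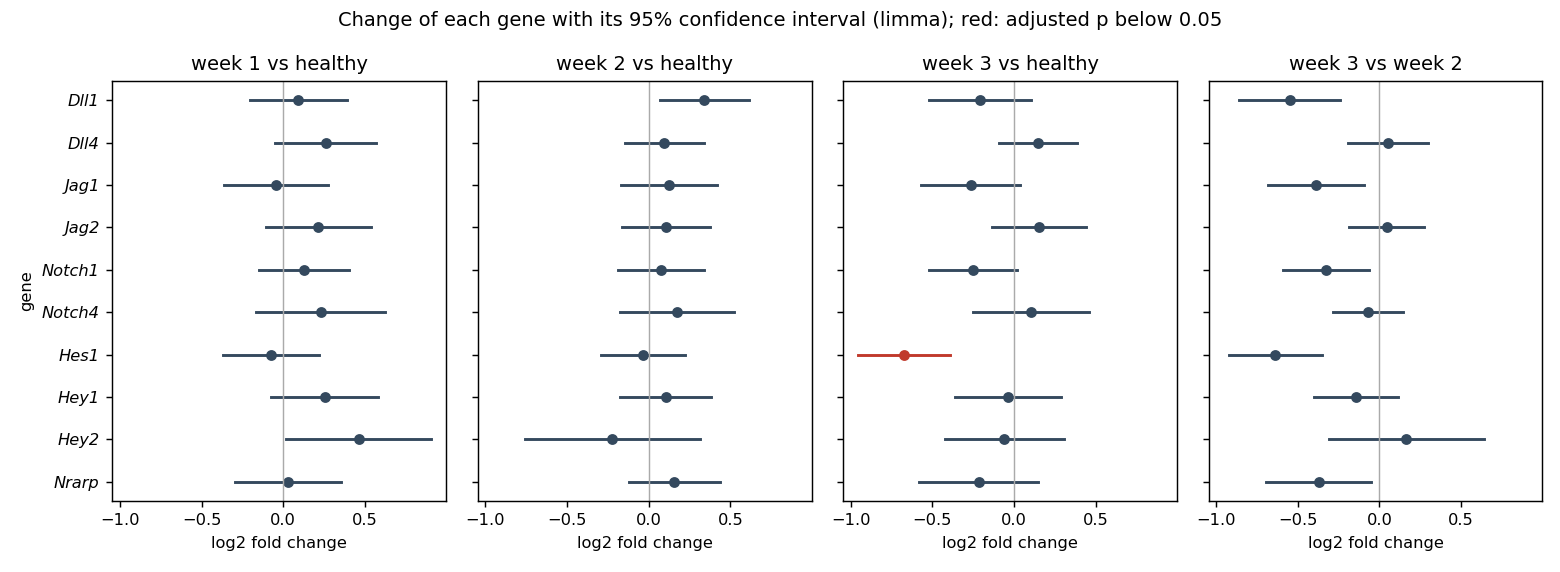
Log2 fold change (horizontal axis) of each of the 10 Notch genes (vertical axis) in 4 comparisons, with lines for the 95% confidence interval from limma. Red marks an adjusted p below 0.05, which Hes1 reached at week 3 against healthy lungs (-0.67, interval -0.95 to -0.39).

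Of the receptor genes, Notch1, the main endothelial Notch receptor, had log2 signals of 12.48, 12.61 and 12.41 in healthy lungs, 12.55, 12.64 and 12.69 at week 1, 12.44, 12.63 and 12.65 at week 2, and 12.21, 12.37 and 12.16 at week 3. Every week 3 array lay below all 9 others. The differences were small, with log2 fold changes at week 3 of -0.25 against healthy lungs (standard error 0.11, 95% confidence interval -0.52 to 0.02, adjusted p = 0.270), -0.33 against week 2 (standard error 0.11, adjusted p = 0.202) and -0.38 against week 1 (standard error 0.12, adjusted p = 0.234). Notch4, a receptor found mostly in ECs, averaged 12.43 ± 0.27 in healthy lungs, 12.66 ± 0.16 at week 1, 12.60 ± 0.03 at week 2 and 12.53 ± 0.05 at week 3 (SD, n = 3 each). The healthy arrays of Notch4 ran from 12.22 to 12.74 and covered every week 2 and week 3 array, and at week 3 its log2 fold change was 0.10 (95% confidence interval -0.25 to 0.46).

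Hes1, a repressor and a classical target of RBPJ, had log2 signals of 9.66, 9.74 and 9.83 in healthy lungs, 9.82, 9.57 and 9.61 at week 1, 9.72, 9.82 and 9.58 at week 2, and 8.92, 9.08 and 9.22 at week 3. The healthy, week 1 and week 2 arrays lay together between 9.57 and 9.83, and the week 3 arrays lay below them without overlap. Hes1 thus fell at week 3 to 0.628 times its level in healthy lungs, which is -0.67 on the log2 scale (standard error 0.12, 95% confidence interval -0.95 to -0.39, adjusted p = 0.0291). The log2 fold change was -0.64 against week 2 (standard error 0.12, adjusted p = 0.0561) and -0.60 against week 1 (standard error 0.14, adjusted p = 0.126), and at weeks 1 and 2 it was -0.08 and -0.03 against healthy lungs (standard errors 0.13 and 0.11). The call at week 3 depends on all 6 arrays: without any 1 of them the adjusted p lay between 0.0507 and 0.0911, with log2 fold changes between -0.75 and -0.59.

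Hes1 is also used by cells other than ECs, and markers of such cells were lower at week 3. The log2 of the summed signal of 11 fibroblast markers lay between 15.12 and 15.29 at week 3 and between 15.67 and 15.72 in healthy lungs, and it was 15.003 to 15.16 at week 1 and 14.67 to 15.02 at week 2. The 11 markers of pericytes and smooth muscle lay at 13.40 to 13.60 in healthy lungs, 12.63 to 12.79 at week 1, 12.64 to 12.79 at week 2 and 12.90 to 13.12 at week 3. The 6 alveolar type 1 markers lay at 14.08 to 14.26 in healthy lungs, 13.87 to 14.07 at week 1, 13.93 to 14.18 at week 2 and, lowest, 13.58 to 13.82 at week 3. The 6 alveolar type 2 markers lay at 14.49 to 14.56 in healthy lungs and 13.28 to 13.91 at week 1. At weeks 2 and 3 these lay at 13.33 to 14.34 and 13.70 to 14.04. The 9 airway markers lay at 12.70 to 14.16 in healthy lungs and 11.13 to 11.79 at week 1. At weeks 2 and 3 these lay at 10.54 to 12.55 and 11.66 to 12.62. The part of fibroblasts, pericytes, smooth muscle and epithelium in the level of Hes1 was not tested. Over the 12 arrays and all genes read, Aard, Mllt6 and Tmem170b had the patterns most like that of Hes1 (Pearson r = 0.956, 0.947 and 0.936, a description over arrays that share their groups). They were picked for this likeness over the same arrays, so a lower level at week 3 follows from the choice. By limma, the log2 fold changes at week 3 against healthy lungs were -0.71, -0.47 and -0.54 (standard errors 0.12, 0.10 and 0.12). Their adjusted p-values were 0.0238, 0.0485 and 0.0517, so Tmem170b, the last of these, did not pass the threshold of 0.05.

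The other targets gave no call. Hey1, a repressor of arterial ECs, averaged 12.88 ± 0.18 in healthy lungs, 13.14 ± 0.13 at week 1, 12.99 ± 0.02 at week 2 and 12.85 ± 0.15 at week 3 (SD, n = 3 each), and at week 3 it differed from healthy lungs by -0.04 on the log2 scale (95% confidence interval -0.36 to 0.28). Nrarp, a target that dampens Notch by binding its intracellular domain, had log2 signals of 11.39, 11.36 and 11.08 in healthy lungs, 11.45, 11.20 and 11.27 at week 1, 11.37, 11.44 and 11.49 at week 2, and 10.81, 11.09 and 11.27 at week 3. The week 3 arrays of Nrarp lay below those of week 2 and overlapped with those of healthy lungs and week 1, with a difference on the log2 scale of -0.37 from week 2 (standard error 0.14, 95% confidence interval -0.69 to -0.05, adjusted p = 0.230) and -0.22 from healthy lungs (standard error 0.16, adjusted p = 0.483).

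Hey2, a relative of Hey1 with a role in arterial and heart development, was dim, and its 12 arrays lay at or below 8.12, under the array median of 8.13. It had log2 signals of 7.19, 7.38 and 7.73 in healthy lungs, 8.12, 7.95 and 7.61 at week 1, 7.42, 6.75 and 7.47 at week 2, and 7.31, 7.33 and 7.49 at week 3. The week 1 arrays lay above those of weeks 2 and 3 and overlapped with the healthy ones. The log2 fold change was 0.46 at week 1 against healthy lungs (standard error 0.19, adjusted p = 0.529), -0.68 at week 2 against week 1 (standard error 0.23, adjusted p = 0.577) and -0.52 at week 3 against week 1 (standard error 0.16, adjusted p = 0.227).

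Promoter sequences were looked up to see whether the letters that RBPJ recognizes stand near the starts of these genes. RefSeq promoters (GRCm38.p6, 250 bases before to 50 after a gene's start) were at hand for 8 of the 10 genes, 9 promoters in all. None was at hand for Hes1 or Hey1, so their promoters were not searched. The core TGGGAA, searched on both strands, occurred in the Hey2 promoter and in none of the 8 promoters of Dll1 (2 starts), Dll4, Jag1, Jag2, Notch1, Notch4 and Nrarp, and 25.6% of 32851 mouse promoters of this length hold it. In Hey2 both matches extend to GTGGGAA, which contains the core and is held by 6.38% of the promoters, with 0.256% holding it at least 2 times. One begins 4 bases before the start on the strand of the gene and the other 207 bases before it on the opposite strand, so that it reads TTCCCAC as printed here. The Hey2 promoter is printed as the single member promoter with matches among the 9 searched, from chr10:30842734-30843033, minus strand, with both matches in capitals.

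Hey2: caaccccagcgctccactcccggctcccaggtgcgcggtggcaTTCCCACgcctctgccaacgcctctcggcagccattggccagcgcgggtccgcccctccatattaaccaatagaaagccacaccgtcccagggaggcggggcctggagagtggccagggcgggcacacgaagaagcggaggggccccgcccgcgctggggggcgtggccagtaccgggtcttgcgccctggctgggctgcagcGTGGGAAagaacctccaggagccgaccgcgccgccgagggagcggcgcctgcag

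The matches are a description of the letters, not evidence of binding, and the lack of a match covers only these windows.

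Of the 6 comparisons, week 3 against week 2 held the most members with small unadjusted p-values. Of the 10 genes, 5 had an unadjusted p below 0.05 with a lower level at week 3 (Dll1, Jag1, Notch1, Hes1 and Nrarp), beside 8.34% of all genes. The week 3 arrays lay below the week 2 arrays without overlap for 6 of the 10 genes (those 5 and Notch4, whose ranges meet at 12.57), beside 12.5% of all genes. None passed after adjustment, and no member was higher without overlap. The median log2 fold change of the 10 genes was -0.23, beside -6.74e-04 over all genes. Against week 1, all 10 genes had a negative log2 fold change at week 3, as did 9857 of all 18193 genes. The median was -0.27 beside -0.02 over all genes. Against healthy lungs, 8 of the 10 had a positive log2 fold change at week 1 (11070 of all genes) and 3 at week 3 (9877 of all genes). The 5 genes named against week 2 include both families of ligands, a receptor and a pair of targets. For the others, the difference from week 2 on the log2 scale was 0.05 for Dll4 and 0.04 for Jag2 (standard errors 0.10 and 0.10). It was -0.07 for Notch4 (standard error 0.09), -0.14 for Hey1 (standard error 0.11) and 0.16 for Hey2 (standard error 0.20). Of 56 other Notch pathway genes, 0 passed between week 3 and week 2, and at an unadjusted p below 0.05 there were 2 higher and 9 lower at week 3, with a median log2 fold change of -0.04.

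Of the genes with several probe sets, Notch1, Nrarp and Jag2 had sets that ran the same way at week 3 against healthy lungs and week 2. Sets of Jag1 and Notch4 differed in sign against healthy lungs, and those of Dll4 against week 2. The 10 genes have 18 probe sets in all, and none but that of Hes1 passed at week 3 against healthy lungs. For Notch1, the second probe set gave log2 fold changes at week 3 of -0.18 against healthy lungs and -0.48 against week 2 (standard error 0.10), and for Jag1 a second set gave -0.23 and -0.49. The third and dimmest set of Jag1 gave 0.04 and -0.33. The second set of Nrarp gave -0.25 and -0.37, that of Dll4 0.03 and -0.16, and that of Jag2 0.36 and 0.14. The sets of one gene are not exchangeable, since the correlation between them over the 12 arrays ran from -0.01 (a pair of Notch4, of which 1 set is dim, with signals of at most 6.15) to 0.73 (a pair of Jag1). Hes1, Dll1, Hey1 and Hey2 have 1 probe set each, so their values have no such second reading.

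**Figure D3:**
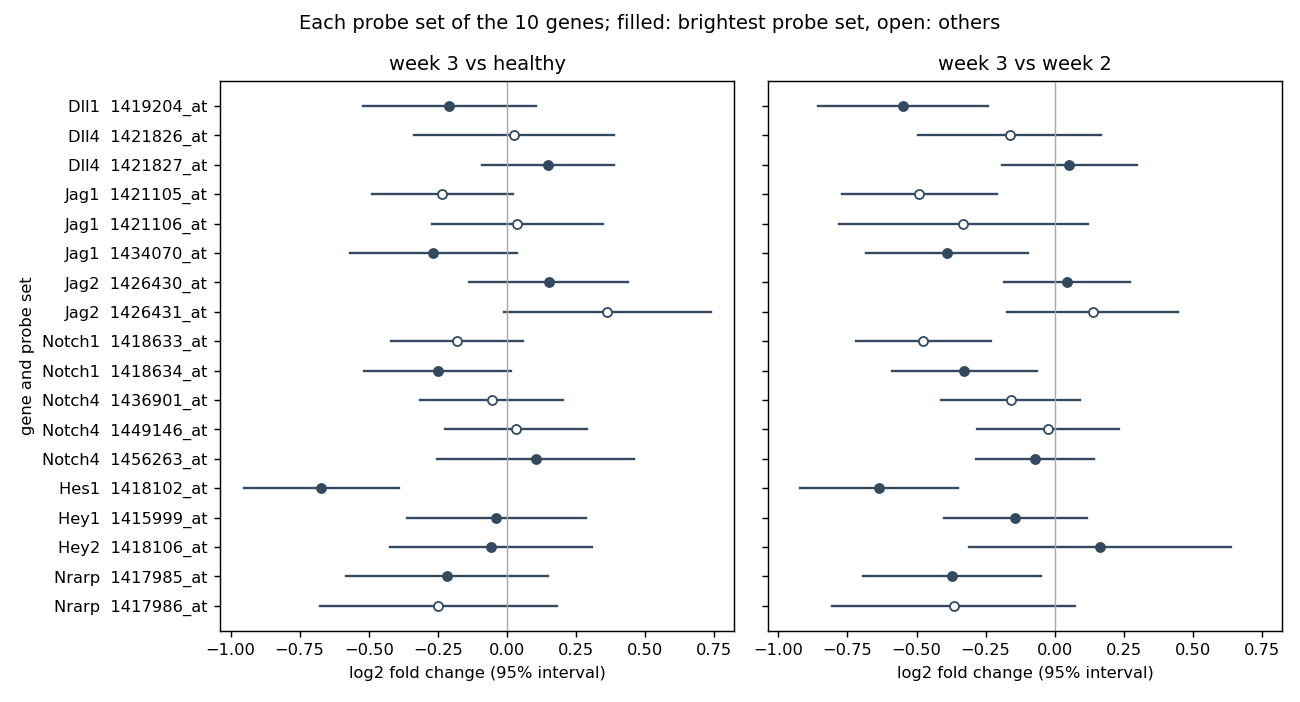
Log2 fold change with its 95% confidence interval (horizontal axis) for each of the 18 probe sets of the 10 genes (vertical axis), at week 3 against healthy lungs and against week 2. Filled points are the brightest set of a gene and open points the others; both sets of Notch1 lie below 0 on each side.

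Across arrays, members varied together only in part. Over the 12 arrays, the highest Pearson correlations were between Dll1 and Notch1 (r = 0.777), Jag1 and Hes1 (r = 0.731) and Hes1 and Nrarp (r = 0.706), and the lowest was between Dll4 and Jag1 (r = -0.247). With each group's mean taken out, these pairs gave 0.685, 0.344, 0.454 and -0.200. Other pairs were then the extremes, with 0.801 for Jag1 and Jag2 and -0.701 for Hey1 and Nrarp. These are descriptions over 12 arrays, and the arrays share their normalization and, by group, their week.

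The rest of the pathway was read from a list of 61 genes, of which 56 were measured. At week 3 against healthy lungs 1 rose, 3 fell and 52 stayed short of the threshold, a count of 4 of 56 beside 5.01% of all genes, with a median log2 fold change of -0.01 beside 0.03 over all genes. Of 16 genes of ubiquitination and trafficking, Dtx3l rose and Neurl3 and Dtx4 fell. Of 8 genes of receptor cleavage, Aph1b fell, and none of 5 other ligands and receptors, 5 genes of receptor glycosylation, 14 of the nuclear complex and its cofactors and 8 other HES and HEY factors passed. Rbpj, the DNA-binding partner of the receptors, differed by 0.08 on the log2 scale (standard error 0.16). Adam10, which encodes an ADAM protease that cuts the ligand-bound receptor, differed by 0.39 (standard error 0.15, adjusted p = 0.198). Ep300 and Tle2, a coactivator and a corepressor, differed by 0.46 and -0.37 (standard errors 0.39 and 0.13), Mfng and Rfng, which encode glycosyltransferases of the receptors, 0.20 and -0.18 (standard errors 0.10 and 0.13), and the ligand-like genes Dll3 and Dlk1, both dim, 0.40 and 0.40 (standard errors 0.12 and 0.12).

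Neurl3, a ubiquitin ligase gene of the neuralized family, had log2 signals of 10.87, 10.54 and 10.41 at week 3 and 11.88, 11.70 and 11.70 in healthy lungs. It fell at week 3 (-1.16 on the log2 scale with standard error 0.15, adjusted p = 0.0093), and its week 1 arrays, at 11.14, 11.17 and 10.99, also lay below the healthy ones (by -0.66 with standard error 0.12, adjusted p = 0.102). The week 3 call of Neurl3 was kept without any 1 of the 6 arrays. Dtx3l, a deltex family gene known as interferon-inducible, had log2 signals of 11.17, 11.35 and 11.37 at week 3 and 10.55, 10.34 and 10.58 in healthy lungs (a difference of 0.80 with standard error 0.12, adjusted p = 0.0159). Dtx4, another deltex gene, had 8.79, 8.67 and 8.57 at week 3 and 9.29, 9.36 and 9.16 in healthy lungs (a difference of -0.60 with standard error 0.11, adjusted p = 0.0364). Its arrays of weeks 1 and 2 lay below the healthy ones too, by -0.85 and -0.58, and did not pass (standard errors 0.23 and 0.11). Aph1b, which encodes a subunit of γ-secretase, had 9.61, 9.41 and 9.36 at week 3 and 10.08, 10.06 and 10.49 in healthy lungs (a difference of -0.75 with standard error 0.15, adjusted p = 0.0417). Aph1b has a near-identical copy, Aph1c, and another probe set is annotated to both, so the signal given for Aph1b is uncertain and may include its copy. The arrays of the 4 genes did not overlap between week 3 and healthy lungs, although Dtx4 and Aph1b lost their calls without any 1 array, and Dtx3l kept its call in 2 of these 6 fits.

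**Figure D4:**
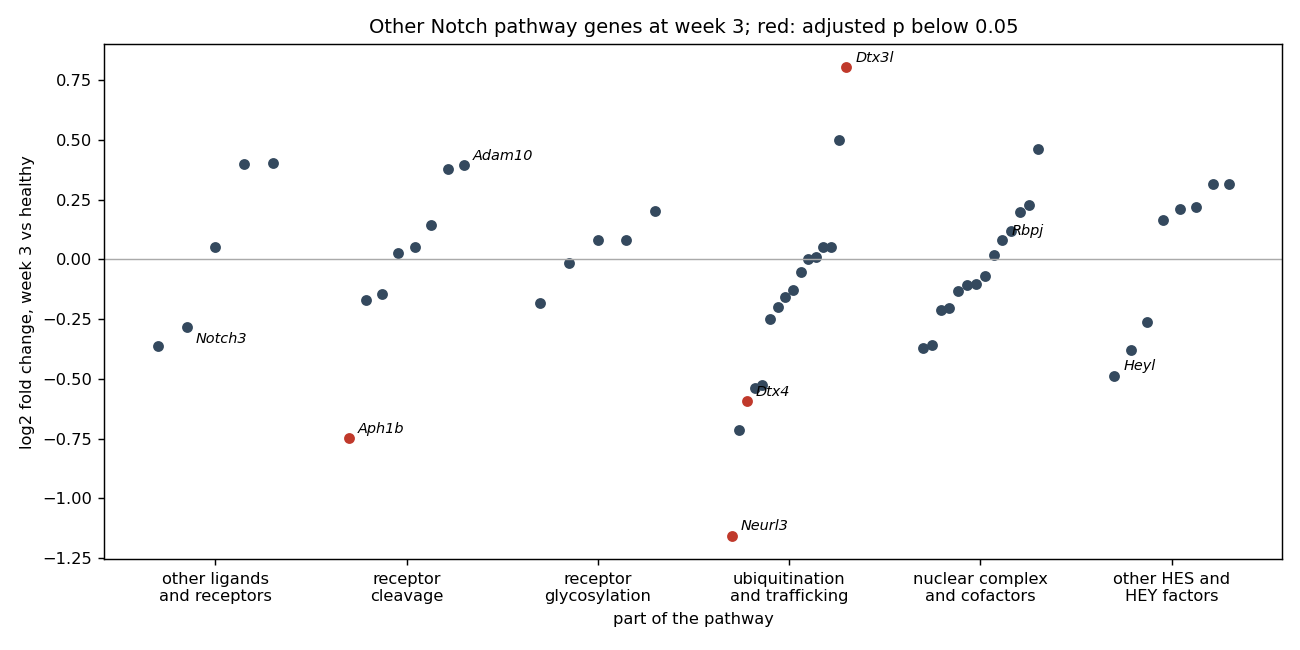
Log2 fold change at week 3 against healthy lungs (vertical axis) of 56 other Notch pathway genes, grouped by their part in the pathway (horizontal axis). Each point is a gene, and red marks an adjusted p below 0.05, reached by Dtx3l (0.80) and by Neurl3, Dtx4 and Aph1b (-1.16, -0.60 and -0.75).

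Heyl, a HES and HEY family gene known from pericytes and smooth muscle, was lowest in the first weeks. It had log2 signals of 11.04, 10.49 and 10.27 in healthy lungs, 9.18, 9.17 and 9.69 at week 1, 9.73, 10.07 and 9.27 at week 2, and 10.04, 10.31 and 9.98 at week 3. The arrays of weeks 1 and 2 all lay below the healthy ones, and those of week 3 overlapped with them. The log2 fold changes against healthy lungs were -1.25 at week 1, -0.91 at week 2 and -0.49 at week 3 (standard errors 0.23, 0.26 and 0.21, adjusted p = 0.102, 0.288 and 0.249). The summed markers of pericytes and smooth muscle, given above, lay below those of healthy lungs without overlap at weeks 1 and 2 and also at week 3. Notch3, the receptor of those cells, gave -0.28 at week 3 against healthy lungs by its brightest probe set (standard error 0.14, adjusted p = 0.321) and fell by the brightest of its sets without an _x_at or _s_at name (log2 fold change of -0.61, adjusted p = 0.0353). The part of pericytes and smooth muscle in the level of Heyl was not tested. Hes7, another member of the family, gave -0.38 at week 3 (adjusted p = 0.319).

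Endothelial genes that lie around Notch in sprouting and arterial vessels were set beside the members. Their lists were chosen with earlier results of these data known. Over all 18193 genes, 433 rose at week 3 against healthy lungs at the same threshold. Of 10 tip cell genes 4 rose at week 3 against healthy lungs, namely Unc5b, Apln, Angpt2 and Cxcr4 (1.01, 0.89, 0.81 and 0.69 on the log2 scale with standard errors 0.12, 0.14, 0.17 and 0.12). Dll4, which is also expressed by tip cells, had 0.15 in the same comparison, with arrays between 11.56 and 11.71 at week 3 and between 11.42 and 11.52 in healthy lungs. Of 15 arterial genes 2 rose, Cxcr4 and Unc5b, which are also on the tip cell list, and 13 did not pass, among them the gap junction genes Gja4 and Gja5 (-0.21 and 0.05, standard errors 0.12 and 0.17) and Efnb2, which encodes the arterial ligand ephrin B2 (-0.20, standard error 0.12). Of 7 venous genes 1 rose, the chemokine receptor gene Ackr1 (1.62, standard error 0.24), while Nr2f2, a venous regulator known for restraining Notch, had -0.14 (standard error 0.11). Of 3 VEGF receptor genes none passed, with Flt4 and Flt1 at 0.24 and -0.10 (standard errors 0.12 and 0.11).

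**Figure D5:**
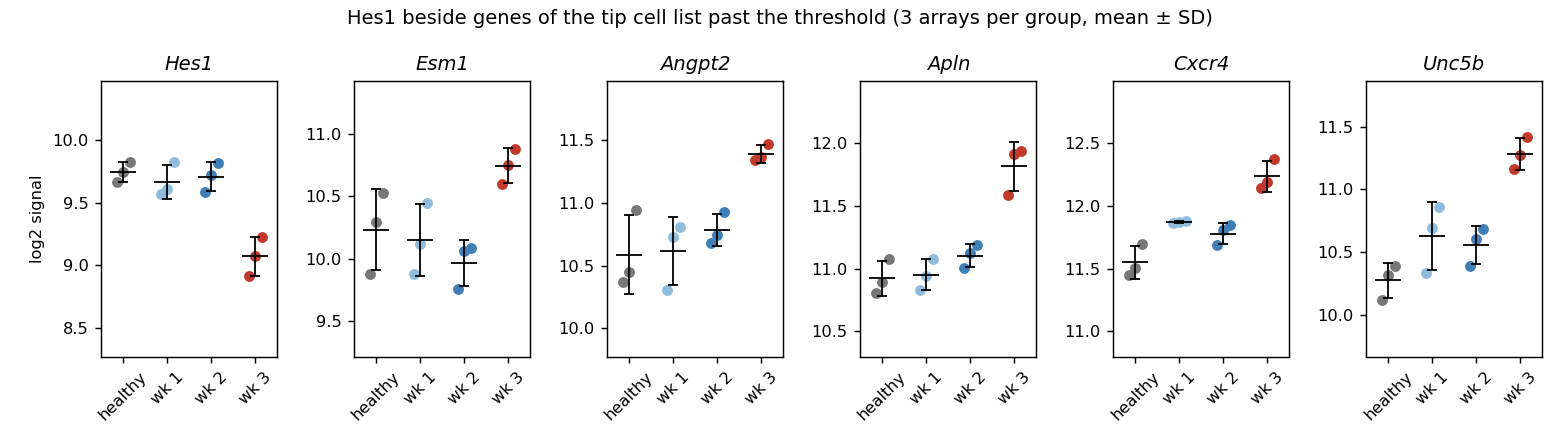
Log2 signal (vertical axis) of Hes1 and of 5 tip cell genes that passed in a comparison with week 3, in ECs of healthy lungs and of the 3 weeks, by group (horizontal axis). Each point is an array, ordered by value within a group, and bars are the mean ± SD (n = 3); the Hes1 arrays of week 3 lie at 8.92 to 9.22 and those of Unc5b at 11.16 to 11.41, below and above the other 9 arrays of each.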

How the data were processed

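Lung ECs were profiled on Affymetrix GeneChip Mouse Genome arrays (12 arrays, 4 groups of 3). The deposited values are log2 signals per probe set, normalized by the authors by robust multiarray average in Chipster 3.8.0 (background correction, quantile normalization and summary over probes), which compresses differences of dim probe sets. The build is not given in the sources used here. The values were used as deposited, with 64 control probe sets of 45101 set aside. Gene names came from GEO's platform annotation, and of the remaining probe sets 34945 carry 1 symbol, 932 several and 9160 none. Each gene was read from its one-symbol probe set with the highest mean.

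Each pair of groups had its own fit in limma (version 3.58.1, R 4.3.3), two-sided with empirical Bayes variances as in the study's methods, with Benjamini–Hochberg adjustment over 45037 probe sets. The fit was tested on simulated data. Correlations between arrays were 0.973 to 0.983 within and 0.961 to 0.981 between groups, and 3 arrays per group limit the precision. Where nothing says that replicates came from separate mice, p-values measure only the spread between these arrays.

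The 10 genes and the lists (rest of the Notch pathway, arterial, venous and tip cell genes, VEGF receptors and 11 lists of cell type markers) were chosen with earlier results of these data known. Named genes are the members, the listed pathway and endothelial genes past the threshold in any of 6 comparisons, and up to 2 others a list with the largest change at week 3. Rbpj, Notch3, Gja4, Gja5, Efnb2 and Nr2f2 were added after their values were seen. Alternatives tried were the replicate number as a block, 1 fit over all groups, leaving out each array, quantile normalization again, median centring, a filter on dim probe sets, probe sets without _x_at and _s_at names, the mean or another probe set per gene, a trended robust variance and array weights.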

Additional observations from a re-analysis of the deposited data

Results flagged for a closer look

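The differences from healthy lungs at weeks 3 and 2 were compared with each other by testing week 3 against week 2 directly, with limma. None of the 10 Notch genes passed that test, where 2.10% of all genes did. Of the 31 endothelial genes set beside them, 5 passed, all higher at week 3. The lists of these genes were chosen with earlier results of these data known. The log2 fold change was 0.92 for Nrp2 (standard error 0.13, adjusted p = 0.0252), 0.78 for Esm1 (standard error 0.13, adjusted p = 0.0416), 0.73 for Unc5b (standard error 0.12, adjusted p = 0.0407), 0.71 for Apln (standard error 0.13, adjusted p = 0.0478) and 0.61 for Angpt2 (standard error 0.11, adjusted p = 0.0451). Week 3 and week 2 arrays did not overlap for any of the 5. Nrp2, a coreceptor of VEGF family ligands, had log2 signals of 11.999, 11.66 and 11.87 at week 3 and 10.97, 11.01 and 10.79 at week 2. Its mean was 11.26 in healthy lungs and 11.32 at week 1, above the 10.92 of week 2. Esm1, a tip cell gene, had 10.75, 10.88 and 10.60 at week 3 and 10.08, 10.06 and 9.76 at week 2. The mean of Esm1 was 10.23 in healthy lungs and 10.15 at week 1, above the 9.97 of week 2. Neither gene passed at week 3 against healthy lungs.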

How the results depend on the processing

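With 3 arrays a group, the precision is limited, and the week 3 call of Hes1 is near the threshold. Against healthy lungs, 1 member passed at week 3, and Hes1 passed in 8 of 9 alternative settings that keep all arrays (adjusted p between 0.0068 and 0.0330). It missed with the replicate number as a block, which left 0 members (Hes1 at -0.67, adjusted p = 0.0699) and 1 of the 4 other pathway genes (Neurl3). The replicate numbers do not pair the arrays: same-numbered arrays deviated from their group means with correlations of -0.104 to 0.0647, and 11 of 36 matches of an array with another group were best at its own number. Without any 1 array the members that passed at week 3 numbered 0 to 0, and the other pathway genes 1 to 2.

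Week 3 against week 2, where 0 members passed, gave 2 with all groups in one fit (Hes1 and Dll1, adjusted p = 0.0164 and 0.0393), 2 with a trended and robust variance (0.0497 and 0.0334), 1 with the filter on dim probe sets (Hes1, 0.0356) and 1 with the mean of a gene's probe sets (Hes1, 0.0288). Week 3 against week 1, likewise at 0, gave 1 with all groups in one fit (Hes1, 0.0246) and 1 with a trended and robust variance (Notch1, 0.0346). Of the members' log2 fold changes at week 3 against healthy lungs and against week 2, over these settings, 290 kept their direction and side of the threshold, 6 came to pass it, 7 no longer did and 11 changed sign.

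The sign changes were mostly among log2 fold changes near 0, with the exception of Jag1. At week 3 against healthy lungs, Jag1 was 0.0379 by its dimmest probe set (-0.27 by the brightest), and Notch4 -0.0544 by its dimmest (0.10 by the brightest). At week 3 against week 2, Dll4 was -0.0556 by the mean of its sets and -0.16 by its other set (0.05 by the brightest). Without 1 array each, the ranges that crossed 0 were -0.0044 to 0.10 for Dll4, -0.0687 to 0.29 for Hey2 and -0.0057 to 0.0733 for Jag2 at week 3 against week 2, and -0.14 to 0.0419 for Hey1, -0.18 to 0.0874 for Hey2 and -0.0035 to 0.26 for Notch4 against healthy lungs. The causes were not tested.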
